A study of Rattus norvegicus with 12 samples.

Results

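The genes described here encode the mitochondrial respiratory chain and ATP synthase. They were taken as all probes whose gene name on the array, with the suffixes _predicted and _mapped dropped, begins with Nduf followed by a, b, c, s or v, with Uqcr, with Cox and a digit from 4 to 8, or with Atp5, or is Sdha, Sdhb, Sdhc or Sdhd. The pattern found 81 of the 41012 non-control probes, for 71 of 35561 gene names on the array, and uses no measured value. Of these, 72 probes for 64 genes passed the filter on dim probes, as did 20418 probes of the whole array. The filter could have favoured genes seen at 1 time only, but 69 of the 72 probes were well above background in both channels on all 12 arrays. The 9 probes left out were those of Ndufb6, Ndufs4, Ndufs5b, Ndufv3l, Cox6b and Cox6c1 and the 3 of Cox8h, and nothing is said of these genes.

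The respiratory chain passes electrons from NADH (complex I) and succinate (complex II) through ubiquinone, complex III and cytochrome c to oxygen at complex IV. Complexes I, III and IV pump protons across the inner mitochondrial membrane, and ATP synthase, complex V, uses their return to make ATP. Most subunits are encoded in the nucleus, while a few core subunits of complexes I, III, IV and V come from mitochondrial DNA. No array probe carried the name of a mitochondrially encoded subunit, so every value below is for a nuclear transcript. Neurons depend heavily on this pathway for ion pumping and axonal transport.

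The cells were F11, a fusion of mouse neuroblastoma with rat neurons of the dorsal root ganglion that serves as a model of sensory neurons. All cells spent 3 h in DMEM with 0.5% FCS and antibiotics. Forskolin at 10 µM, which activates adenylyl cyclase and raises cyclic AMP, was then given for 2, 4, 24 or 48 h, with 3 arrays for each time. Cells after the 3 h in low serum without forskolin were the common reference on all 12 arrays, so the reference is 1 control sample and its own spread does not enter any test. There were no untreated cells at later times, so hours of forskolin and hours in low serum cannot be told apart. Forskolin RNA carried Cy3 (green) and reference RNA Cy5 (red) on every array. A dye effect of a probe therefore stays in every comparison with the reference and cancels between times. Replicates 1, 2 and 3 lay on 3 slides and each time had its own array position, so position and time cannot be told apart. The labels do not say that replicates were separate cultures, and the spread behind the p-values may be technical.

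All 12 sensory neuron markers on a marker list were measured. They moved with time too: 5 rose and 3 fell at 24 h, 9 rose and 1 fell at 48 h (median 0.55), and 10 rose and none fell from 24 to 48 h (median 0.40). Of all probes, 26.8% rose and 29.7% fell at 48 h, and 7.37% rose and 6.64% fell from 24 to 48 h. With arrays centred on their median instead of loess-normalised, 2 markers rose and 9 fell at 48 h. In that setting 2 markers rose and none fell from 24 to 48 h. Their part in the late values of the chain was not tested. Of the other lists, 3 of 10 glial, 5 of 8 fibroblast, 4 of 8 leukocyte and endothelial and 3 of 6 muscle markers were measured. The defining genes Mbp, Gfap, Olig2, Dcn, Col3a1, Cd3e, Itgam, Pecam1 and Myh7 did not pass the filter on dim probes. From 19889 to 21973 spots an array were well above background in green and from 19504 to 23285 in red. The mouse genome in the hybrid also makes these transcripts, and the share of mouse RNA in each probe's signal was not tested. In bulk RNA, a smaller share of cells and less RNA in each cell cannot be told apart.

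Values are log2 of forskolin over reference after loess normalisation within each array. The authors deposited the opposite ratio, reference over forskolin. "Rose", "fell" and "called" mean an adjusted p under 0.05 in limma's moderated test, with Benjamini-Hochberg adjustment over all 20418 probes. Errors after ± are SD over 3 arrays unless SE is named.

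Changes in the chain were small and went both ways. Most calls between successive times, 28 probes with 22 of them lower, lay between 4 and 24 h, as they did for all probes. In that step 38.9% of members were called, against 38.5% of all probes and 51.1% of probes of like brightness. No probe of the 72 reached a 2-fold change in any comparison. At 2 h, 14 of 72 probes were called, 1 higher and 13 lower (19.4%), against 27.7% of all probes (10.8% higher, 16.9% lower). At 4 h, 34 were called, 20 higher and 14 lower (47.2%), against 49.3% (21.1% and 28.2%). At 24 h, 43 were called, 13 higher and 30 lower (59.7%), against 52.4% (24.5% and 27.9%). At 48 h, 40 were called, 10 higher and 30 lower (55.6%), against 56.5% (26.8% and 29.7%). Among probes of like brightness the shares called were 37.7%, 62.8%, 68% and 72.2%, so the share of members called was below that of equally bright probes at every time, with no test made. All rises against the reference turned negative when arrays were centred on their median instead of loess-normalised, as described further on, while no fall turned. Centring leaves in a trend that lowers bright probes, so it pushed most chain values down and could hardly turn a fall. The contrast therefore does not show that falls were firmer than rises.

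By direction, the members called lower made up 41.7% at 24 h against 27.9% of all probes, and 41.7% at 48 h against 29.7%. Chain probes are bright, with a median brightness percentile of 94.1 among all probes kept. Among the probes nearest to each member in brightness, called probes of like brightness here, 34.9% were lower at 24 h and 38% at 48 h. The members called higher were 18.1% at 24 h and 13.9% at 48 h, against 33.1% and 34.2% of probes of like brightness. No test of these shares was made.

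Between successive times, where reference and dye effect cancel, 3 members were called from 2 to 4 h, all higher (4.17%, against 14.9% of all probes, 5.65% higher and 9.22% lower). From 4 to 24 h, 28 were called, 6 higher and 22 lower (38.9%, against 38.5%, 20.2% higher and 18.3% lower). Members lower in that step were 30.6% and higher 8.33%, while among probes of like brightness 51.1% were called, 27.6% lower and 23.5% higher, so the share lower was near that of equally bright probes. From 24 to 48 h, 7 were called, 3 higher and 4 lower (9.72%, against 14%, 7.37% higher and 6.64% lower). The F test over the 4 times called 40 of the 72 (55.6%, against 52.9% of all probes and 70.8% of probes of like brightness). The members' median difference from 4 to 24 h was -0.080, against 0.00067 for all probes and -0.017 for probes of like brightness. For the same 72 probes the medians against the reference were -0.026, 0.016, -0.058 and -0.049 at 2, 4, 24 and 48 h.

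**Figure D1:**
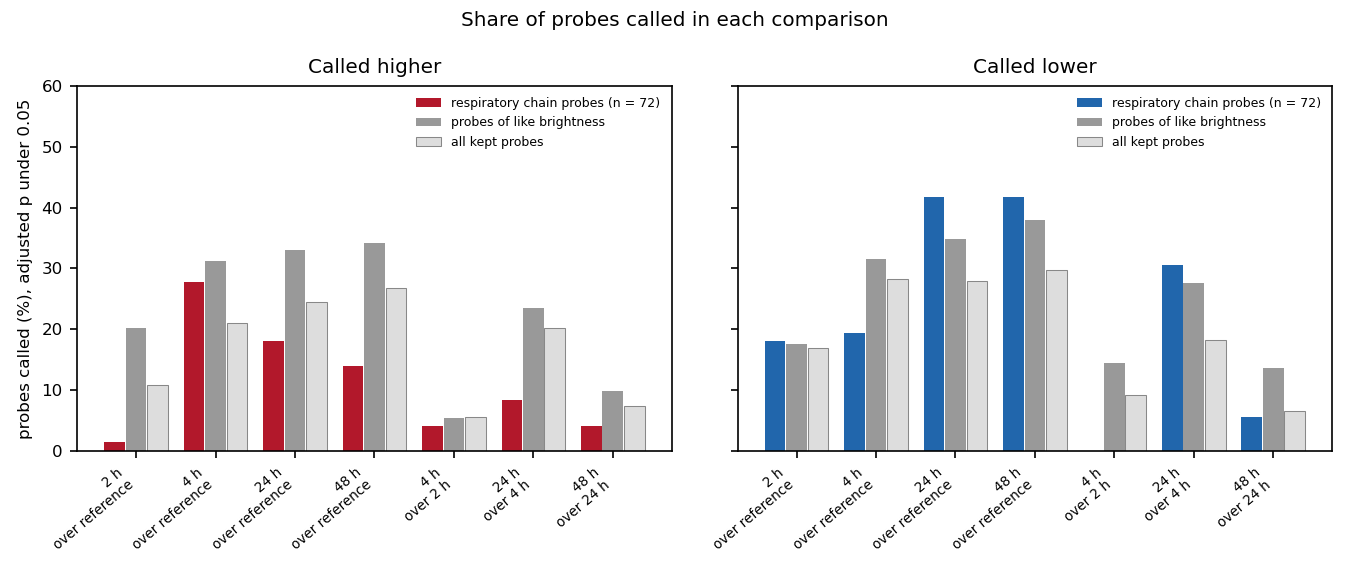
Share of probes called higher (left) and lower (right) in each comparison, in percent, for the 72 respiratory chain probes, for probes of like brightness and for all probes kept. The chain's bars for lower calls stand at 41.7% at 24 h and at 48 h, and its bars for higher calls lie below those of probes of like brightness in all 7 comparisons; with median centring no chain probe was called higher against the reference.

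Member by member, 32 of the 72 probes were lower at one or more times and never higher, 21 were higher and never lower, 6 were called in both directions at different times and 13 were called at no time. Both late times were lower for 26 probes and higher for 6. Of the 26, 16 were called at neither 2 h nor 4 h. A fall at all 4 times was seen for 5 probes, for Ndufs7, Ndufa7, probe 2 of Ndufa9, Sdha and Sdhc, and no probe rose at all 4. Of the 20 probes that rose at 4 h, 7 fell again from 4 to 24 h. All rises in these counts are those of loess normalisation, and they turn with median centring. These profiles were not counted over all probes, of which 27.7%, 49.3%, 52.4% and 56.5% were called at 2, 4, 24 and 48 h. Whether the profiles are particular to the chain was not tested.

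**Figure D2:**
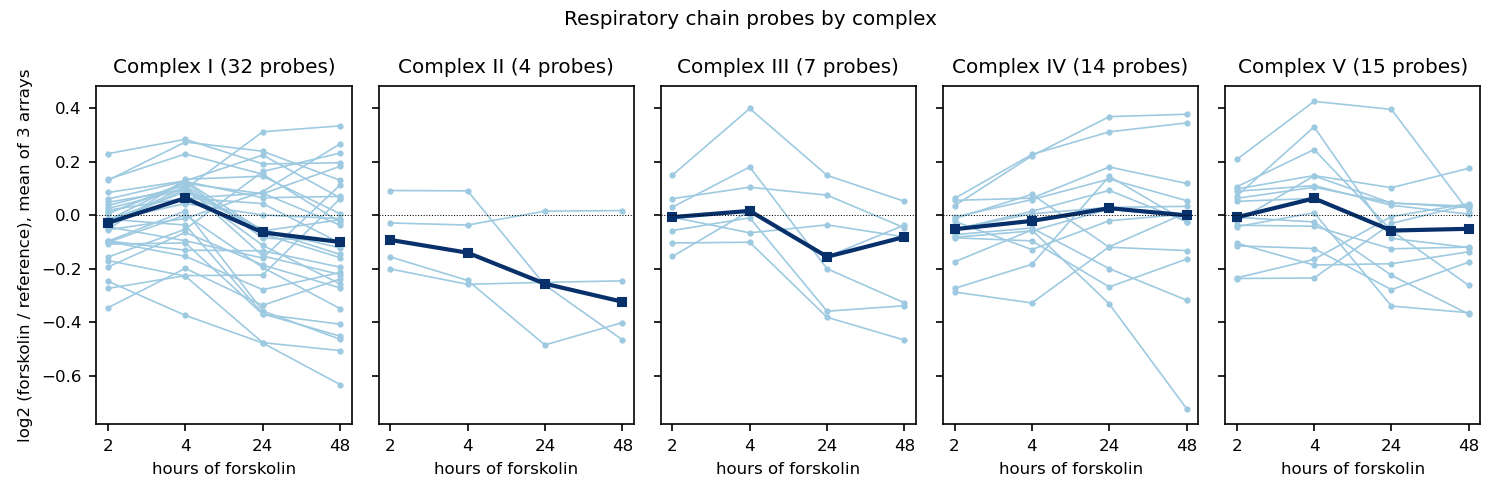
Log2 forskolin over reference against hours of forskolin for each probe (thin lines, means of 3 arrays) and the median of the complex (thick line), after loess normalisation. Complex II had the lowest median of the 5 at 48 h, -0.32, and the lowest line in the complex IV panel is Cox4nb at -0.72; the rises shown turn negative with median centring.

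Complex I takes electrons from NADH through a peripheral arm of core subunits that carry the flavin and iron-sulphur clusters, and many accessory subunits surround the core. Its 32 probes counted 11 higher and 6 lower at 4 h, 6 and 13 at 24 h, and 6 and 14 at 48 h. The medians were 0.064, -0.065 and -0.10. Shares higher and lower were 34.4% and 18.8% at 4 h, against 30.7% and 33% of probes of like brightness. They were 18.8% and 40.6% at 24 h, against 32.6% and 36%, and 18.8% and 43.8% at 48 h, against 33.6% and 38.8%. From 4 to 24 h, 2 rose and 9 fell (6.25% and 28.1%, against 24.7% and 27.8% of probes of like brightness). The 8 probes of core subunits counted 1 higher and 4 lower at 48 h, and the 23 of accessory subunits 4 higher and 10 lower. Both classes thus held more falls than rises with loess, as did all probes (29.7% lower and 26.8% higher).

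Ndufs7, a core iron-sulphur subunit next to the ubiquinone site, had the lowest 48 h value of complex I (probe at rn3 chr7:10963919-10963978, minus strand). Its 3 arrays read -0.27, -0.17 and -0.31 at 2 h and -0.42, -0.34 and -0.36 at 4 h. They read -0.55, -0.42 and -0.47 at 24 h and -0.73, -0.61 and -0.56 at 48 h. All 12 arrays lay below 0, and the 48 h arrays lay below all those at 2 and 4 h. At 48 h the mean was -0.63 ± 0.09 (n = 3), or 1.55-fold lower than the reference (adjusted p = 3.69e-08). No step between successive times was called for it.

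Of the other core subunits, Ndufv1, which binds NADH and the flavin, read 0.18, 0.25 and 0.39 at 4 h, a mean of 0.27 (adjusted p = 0.000549), and was called higher at 0.24 and 0.13 at 24 and 48 h, the last with an adjusted p of 0.0433 that rose to between 0.0868 and 0.138 without any 1 of the 48 h arrays. Ndufs1, the largest peripheral core subunit, was called at 4 h alone (0.28, adjusted p = 0.0174), a call lost without replicate 1 or 3 of 4 h (0.0996 and 0.0617). Its 48 h arrays spread from -0.13 to 0.51, wider than any difference between its times.

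Of the accessory subunits, Ndufa11 and Ndufa12 were near 0 early and low late. Ndufa12, in the peripheral arm, read -0.08, -0.01 and -0.01 at 4 h and -0.37, -0.32 and -0.42 at 24 h, with no overlap. The step was -0.33 (SE 0.06, adjusted p = 0.000444), and at 48 h it lay at -0.45 (adjusted p = 4.51e-07). Ndufa11, in the membrane arm, stepped by -0.37 (adjusted p = 0.000478), and Ndufab1, the mitochondrial acyl carrier protein, by -0.27 (adjusted p = 0.0148, and 0.0573 without replicate 3 of 4 h or 0.0644 without replicate 1 of 24 h). Ndufa7 was low from the start, with -0.35, -0.24 and -0.46 at 2 h and a mean of -0.34 at 24 h.

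Ndufa6, an accessory subunit of the peripheral arm that carries a LYR motif, ran the other way. Its arrays read 0.09, 0.12 and 0.08 at 4 h, 0.32, 0.33 and 0.29 at 24 h and 0.37, 0.28 and 0.35 at 48 h. The step from 4 to 24 h was 0.21 (adjusted p = 0.00406), with no overlap between the times. Against the reference it reached 0.33 ± 0.04 at 48 h (adjusted p = 2.34e-06), which with median centring became -1.06.

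Ndufa1, Ndufb2 and Ndufb4, small subunits of the membrane arm, rose late, Ndufa1 and Ndufb2 from a low start. Ndufa1 went from -0.16 at 2 h to 0.23 at 48 h and its step from 4 to 24 h was 0.22 (adjusted p = 0.0155, and 0.0617 without replicate 1 of 4 h or 0.0576 without replicate 2 of 24 h). Ndufb2 read -0.17, -0.18 and -0.32 at 24 h and 0.07, 0.06 and 0.06 at 48 h, a step of 0.29 (adjusted p = 0.00585). Ndufb4, not called at 2 h and called lower at 4 h (-0.096) and 24 h (-0.16), stepped by 0.27 over the same interval (adjusted p = 0.00336). Ndufaf1, an assembly factor that the name pattern takes in, read 0.05, 0.12 and 0.09 at 24 h and 0.27, 0.27 and 0.26 at 48 h, a step of 0.18 (adjusted p = 0.0319). The last call was lost without any 1 of the 6 arrays, with an adjusted p between 0.0516 and 0.105. The steps of Ndufb2, Ndufb4 and Ndufaf1 were the 3 rises from 24 to 48 h among the 72.

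**Figure D3:**
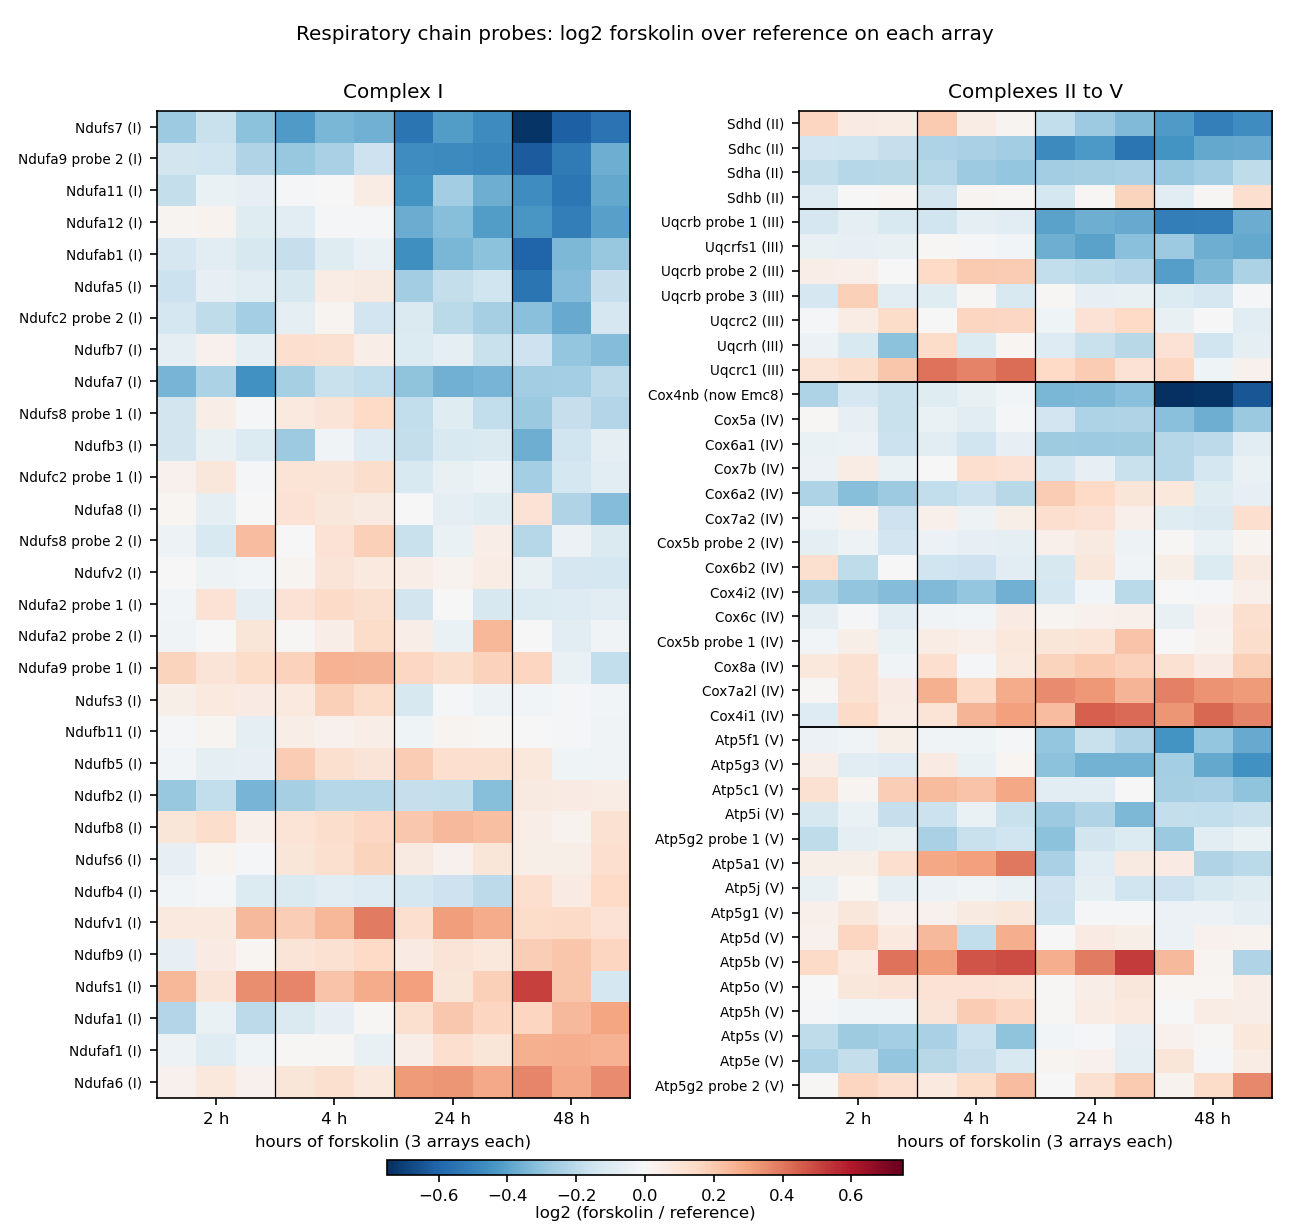
Colour map of log2 forskolin over reference on each of the 12 arrays (columns, grouped by hours of forskolin) for 71 of the 72 probes (rows, with the complex in brackets, ordered within each complex by the 48 h mean), after loess normalisation. Blue rows such as Ndufs7, Sdhc and Uqcrb probe 1 deepen at 24 and 48 h on all 3 arrays, while Cox4i1, Cox7a2l and Ndufa6 are red there, a colour that turns with median centring.

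Complex II, succinate dehydrogenase, links the citric acid cycle to the chain, and all 4 of its subunits are nuclear. Sdha holds the flavin, Sdhb the iron-sulphur clusters, and Sdhc and Sdhd anchor the enzyme in the membrane and bind ubiquinone. None of the 4 probes rose at any time, and Sdha, Sdhc and Sdhd were lower at 24 and 48 h. Among probes of like brightness, 39.4% were lower at 24 h and 42.9% at 48 h. The median of the 4 went from -0.093 at 2 h to -0.14, -0.26 and -0.32.

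Sdhd was near 0 or above early and low late. Its arrays read 0.16, 0.06 and 0.06 at 2 h and 0.19, 0.06 and 0.02 at 4 h. They read -0.19, -0.27 and -0.33 at 24 h and -0.42, -0.51 and -0.46 at 48 h. The early arrays did not overlap the 24 h arrays, nor these the 48 h arrays. The steps were -0.35 from 4 to 24 h (adjusted p = 0.000544) and -0.20 from 24 to 48 h (adjusted p = 0.0483), and at 48 h Sdhd was 1.38-fold below the reference (adjusted p = 7.91e-07). The later step lost its call without any 1 of the 6 arrays of 24 and 48 h, with an adjusted p between 0.0518 and 0.163.

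Sdhc, its partner in the anchor, was below 0 on all 12 arrays. It read -0.15, -0.15 and -0.17 at 2 h and -0.23, -0.24 and -0.26 at 4 h. At 24 h it read -0.48, -0.43 and -0.55, and at 48 h -0.45, -0.38 and -0.38. The step from 4 to 24 h was -0.24 (adjusted p = 0.00223), and the 24 h mean was 1.40-fold below the reference (adjusted p = 1.05e-07). Sdha held a level of -0.20 ± 0.02, -0.26 ± 0.04, -0.25 ± 0.01 and -0.25 ± 0.05 from 2 to 48 h, with no step called. Sdhb lay between -0.14 and 0.17 on all arrays and was called at no time.

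The gene of Sdhd shares its promoter region with Timm8b, which encodes a chaperone of the intermembrane space and is read in the other direction, with starts 96 bases apart. This region is shown because both genes were called lower at 24 h. It is the RefSeq sequence of assembly GRCr8, chr8:59850612-59850766, minus strand, which reads toward Sdhd. Capitals mark the core of an ETS factor site, CCGGAAG, here in its reverse complement.
Sdhd and Timm8b: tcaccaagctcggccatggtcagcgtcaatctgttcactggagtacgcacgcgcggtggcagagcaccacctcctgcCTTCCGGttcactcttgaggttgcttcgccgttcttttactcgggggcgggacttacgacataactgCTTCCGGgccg
Timm8b lay at -0.37 at 24 h (adjusted p = 1.23e-05), beside -0.26 for Sdhd (adjusted p = 0.000242). At 4 h, Timm8b was called higher, at 0.12 (adjusted p = 0.0435), and Sdhd lay at 0.091 without a call (adjusted p = 0.112).

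Complex III passes electrons from ubiquinol to cytochrome c. Its 7 probes counted 2 higher and none lower at 4 h, 1 and 4 at 24 h, and none higher and 3 lower at 48 h. Among probes of like brightness, 32.3% were lower at 24 h and 35.3% at 48 h, against 57.1% and 42.9% of the 7. At 4 h, 30.1% of them were higher, against 28.6% of the 7. From 4 to 24 h, 4 of the 7 fell and none rose, while 26.4% of probes of like brightness fell and 20.3% rose. Uqcrfs1 is the Rieske iron-sulphur protein, which takes the first electron from ubiquinol. It read 0.01, -0.02 and -0.02 at 4 h and -0.37, -0.40 and -0.31 at 24 h. The groups did not overlap, and the step was -0.35 (adjusted p = 0.000122). At 48 h it lay at -0.34 ± 0.06, or 1.26-fold below the reference (adjusted p = 3.06e-06).

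Uqcrc1, a core structural subunit on the matrix side, had a transient peak at 4 h. Its arrays read 0.11, 0.13 and 0.21 at 2 h, 0.41, 0.37 and 0.42 at 4 h, 0.15, 0.19 and 0.11 at 24 h and 0.16, -0.03 and 0.03 at 48 h. The 4 h arrays lay above all 9 others. The step up was 0.25 (adjusted p = 0.0136) and the step down -0.25 (adjusted p = 0.0047), both between times. The step up lost its call without replicate 1 of 2 h (0.0531) or replicate 3 of 4 h (0.0537). The level at 4 h was 1.32-fold the reference (adjusted p = 4.16e-06), but with median centring it was -0.48. Uqcrc2, the companion core subunit, was called at no time.

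Uqcrb, a small subunit that helps to shape the ubiquinone site, had 3 probes. Probe 1 stepped by -0.28 from 4 to 24 h (adjusted p = 0.00131) and lay at -0.47 at 48 h (adjusted p = 2.39e-07). Probe 2 rose at 4 h (0.18 ± 0.03) and then fell by 0.38 to 24 h (adjusted p = 9.64e-05). Probe 3 was dim and was called at no time.

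Complex IV, cytochrome c oxidase, reduces oxygen, and its nuclear subunits, several with tissue-specific isoforms, surround a mitochondrially encoded core. Its 14 probes counted 5 higher and 5 lower at 24 h and 3 and 4 at 48 h, with a median of 0.026 at 24 h. Shares higher and lower were 35.7% and 35.7% at 24 h, against 33.2% and 33.9% of probes of like brightness. At 48 h they were 21.4% and 28.6%, against 34.2% and 36.8%. The lowest of the 14, Cox4nb, is no subunit: its current name is Emc8, a subunit of the endoplasmic reticulum membrane protein complex. Without the probes in the pattern that encode no subunit, the chain as a whole counted 12 higher and 29 lower of 68 at 24 h, and 8 and 29 at 48 h.

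Cox4i1 encodes the common form of subunit 4, which regulates the enzyme. Its arrays read -0.10, 0.15 and 0.06 at 2 h and 0.10, 0.26 and 0.31 at 4 h. They read 0.23, 0.45 and 0.43 at 24 h and 0.33, 0.43 and 0.37 at 48 h. All 24 h and 48 h arrays lay above all 2 h arrays. Cox4i1 was called higher at 4, 24 and 48 h, at 0.22, 0.37 and 0.38 (adjusted p = 0.00519, 9.24e-05 and 6.17e-05), or 1.30-fold at 48 h, and with median centring these became -0.89, -0.62 and -0.66. Without replicate 3 of 4 h the 4 h call was lost (adjusted p = 0.0582). No step between successive times was called.

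Cox4i2, the alternative form of subunit 4 known for its induction in low oxygen, started low. It read -0.24, -0.30 and -0.33 at 2 h and -0.33, -0.29 and -0.36 at 4 h, then -0.13, -0.02 and -0.20 at 24 h. The 4 h and 24 h arrays did not overlap, and the step was 0.21 (adjusted p = 0.011, and 0.0584 without replicate 2 of 24 h). At 48 h its arrays lay between -0.0076 and 0.039, with no call.

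Emc8 and Cox4i1 share a promoter region, with starts 55 bases apart on opposite strands. Emc8 was called lower at 2 h, at -0.17 (adjusted p = 0.00621). It read -0.09, -0.06 and -0.02 at 4 h, -0.34, -0.34 and -0.32 at 24 h and -0.80, -0.73 and -0.64 at 48 h. The last 3 times did not overlap. Its steps were -0.28 (adjusted p = 0.00152) and -0.39 (adjusted p = 0.000408), and at 48 h it was 1.65-fold below the reference (adjusted p = 2.8e-09), the furthest of the 72 probes. The pair was called in opposite directions at 24 and at 48 h with loess, and with median centring both values were negative. The region is shown for that contrast (RefSeq, GRCr8, chr19:65630299-65630412, plus strand, reading toward Cox4i1), with the same ETS core in capitals.
Cox4i1 and Emc8: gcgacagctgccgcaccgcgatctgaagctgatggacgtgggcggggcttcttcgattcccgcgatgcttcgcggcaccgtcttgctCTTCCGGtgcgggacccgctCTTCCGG
The array probes lie at rn3 chr19:51028916-51029945 (plus strand) for Cox4i1 and chr19:51018999-51019058 (minus strand) for Emc8, so they lie apart and on opposite strands.

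Of the other isoform sets, subunit 6a had a step up and a step down from 4 to 24 h. Cox6a2, the heart and muscle form of subunit 6a, read -0.18, -0.16 and -0.21 at 4 h and 0.19, 0.15 and 0.09 at 24 h, a step of 0.33 (adjusted p = 0.000516). Cox6a1, the common form, stepped the other way by -0.17 (adjusted p = 0.0294), a call lost without 5 of the 6 arrays in turn, with an adjusted p of up to 0.0962 without replicate 3 of 4 h. The 4 h and 24 h arrays did not overlap for either gene. Cox7a2l, which takes part in joining complexes III and IV into supercomplexes, was higher at 4, 24 and 48 h, reaching 0.35 ± 0.03 (adjusted p = 6.7e-06), and with median centring -0.64. Cox7a2, Cox6c and Cox6b2 were called at no time. Cox5a, which binds the core on the matrix side, fell to -0.32 ± 0.04 at 48 h (adjusted p = 1.88e-05).

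Complex V, ATP synthase, has a catalytic head of alpha, beta, gamma, delta and epsilon subunits on a rotating ring of subunit c in the membrane, held by a peripheral stalk. Its 15 probes counted 5 higher and 4 lower at 4 h, 1 and 5 at 24 h, and 1 and 6 at 48 h. Shares higher and lower were 33.3% and 26.7% at 4 h, against 34.5% and 28.3% of probes of like brightness. They were 6.67% and 33.3% at 24 h, against 35.7% and 33.6%, and 6.67% and 40% at 48 h, against 37% and 37.5%. From 4 to 24 h, 2 rose and 4 fell (13.3% and 26.7%, against 21% and 27.5%). The rises at 4 h included the alpha, beta and gamma subunits of the head (current names Atp5f1a, Atp5f1b and Atp5f1c).

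Atp5a1, the alpha subunit, read 0.05, 0.04 and 0.12 at 2 h, 0.29, 0.31 and 0.39 at 4 h and -0.24, -0.09 and 0.07 at 24 h. The 4 h arrays lay above all others, and the step down was -0.42 (adjusted p = 0.00167). Atp5b, the catalytic beta subunit, was high for longer. It read 0.31, 0.47 and 0.49 at 4 h, 0.27, 0.39 and 0.52 at 24 h and 0.24, 0.02 and -0.22 at 48 h, so the step down came from 24 to 48 h (-0.38, adjusted p = 0.0404). This step was lost without replicate 2 or 3 of 24 h (0.095 and 0.159) or of 48 h (0.0962 and 0.158). At 4 h it stood 1.34-fold above the reference (adjusted p = 0.00064).

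Atp5c1, the gamma subunit that forms the rotor shaft, crossed the reference level. Its arrays read 0.23, 0.21 and 0.29 at 4 h and -0.25, -0.24 and -0.30 at 48 h. The 24 h arrays lay between, from -0.09 to -0.0047, without overlap with either. The steps were -0.30 (adjusted p = 0.000838) and -0.21 (adjusted p = 0.0301). The second was lost without any 1 of replicates 1 to 3 of 24 h or 2 and 3 of 48 h, with an adjusted p between 0.0561 and 0.121. The 4 h rises of these 3 genes turn with median centring, their steps down do not. Atp5d, the delta subunit, was called at no time.

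**Figure D4:**
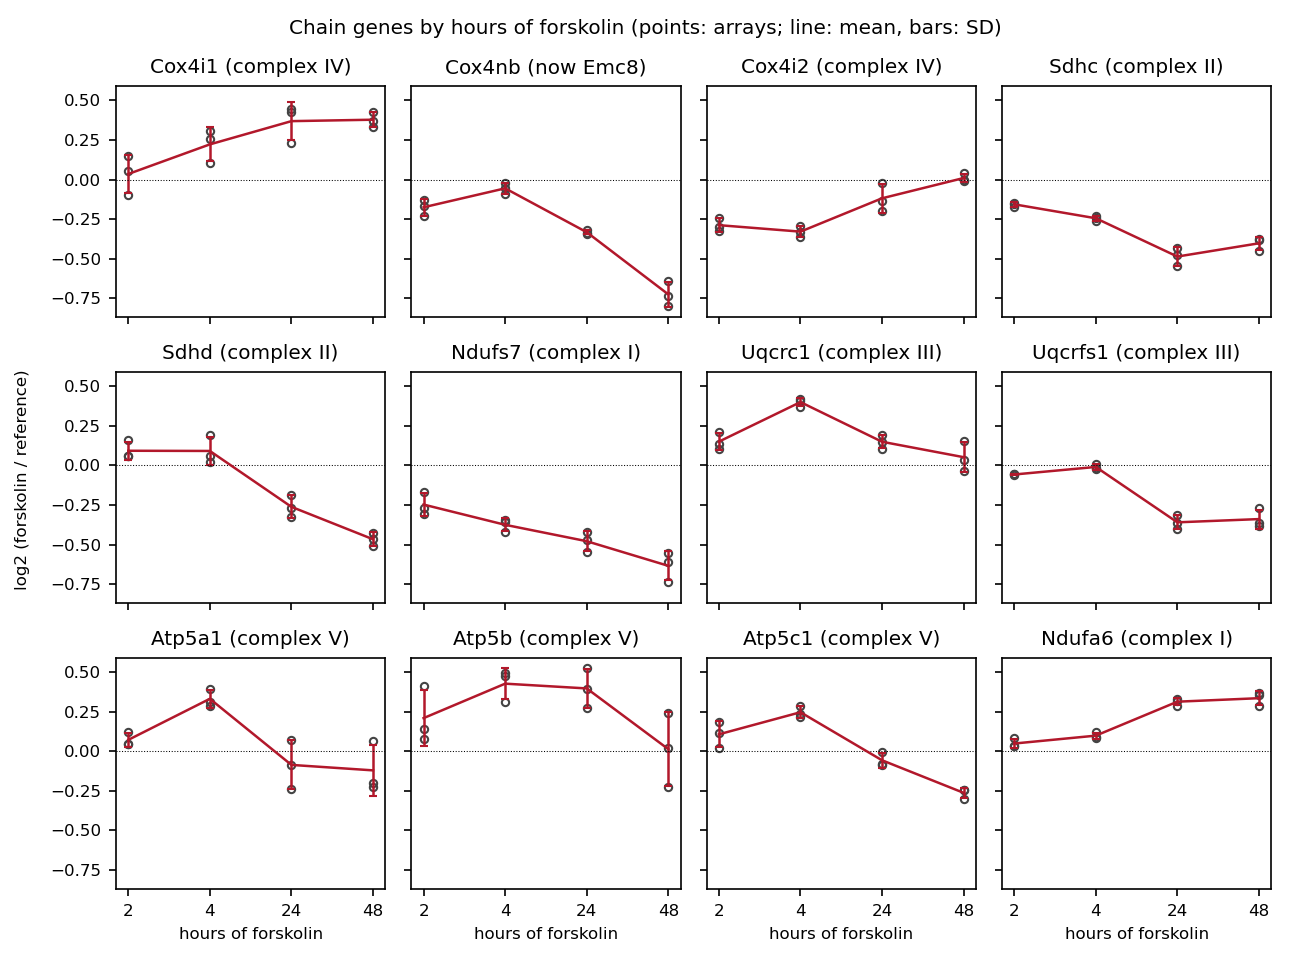
Log2 forskolin over reference against hours of forskolin for 12 genes, with each array as a point, the mean as a line and the SD as bars, after loess normalisation. The means of Cox4i1 and its neighbour Cox4nb (Emc8) lie on opposite sides of 0 at all 4 times and furthest apart at 48 h. Sdhc, Sdhd and Uqcrfs1 drop between 4 and 24 h, and Uqcrc1, Atp5a1 and Atp5c1 peak at 4 h. With median centring the values above 0 fall below it while the steps named in the text keep their sign.

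The epsilon subunit, Atp5e, was low early and returned: its arrays read -0.21, -0.17 and -0.11 at 4 h and 0.02, 0.03 and -0.07 at 24 h, a step of 0.16 (adjusted p = 0.043, and between 0.0987 and 0.133 without replicate 1 or 2 of either time). Atp5s, now Dmac2l and not a subunit of the enzyme, stepped by 0.20 (adjusted p = 0.00972, and 0.0507 without replicate 3 of 4 h). In the peripheral stalk, Atp5f1, subunit b, fell to -0.37 ± 0.08 at 48 h (adjusted p = 3.48e-06), while Atp5o, which joins the stalk to the head, was called at 4 h alone, at 0.11, and not called without any 1 of the 4 h arrays (adjusted p between 0.092 and 0.0962) or with the deposited values (0.289). Atp5h, stalk subunit d, rose from 2 to 4 h by 0.17 (adjusted p = 0.0399), 1 of the 3 such rises together with Ndufb5 and Uqcrc1. Its call was lost without 5 of the 6 arrays in turn (adjusted p between 0.0852 and 0.138), and that of Ndufb5 without any 1 of the 6 (between 0.0606 and 0.126).

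Subunit c is encoded by 3 genes whose mature proteins are the same. Atp5g3 read 0.06, -0.05 and 0.01 at 4 h and -0.31, -0.36 and -0.36 at 24 h, a step of -0.35 (adjusted p = 0.000691). Atp5g1 was called at no time. The 2 probes of Atp5g2 were called in opposite directions at 48 h, -0.14 for probe 1 (adjusted p = 0.0426) and 0.18 for probe 2 (adjusted p = 0.0239). Probe 1 lay at -0.066 without replicate 1 and probe 2 at 0.083 without replicate 3, neither of them called. Their sequences are shown because the result differs with the probe. Probe 1 lies at rn3 chr7:141489459-141489518 and probe 2 at chr7:141491631-141491690, both on the minus strand.
Atp5g2 probe 1: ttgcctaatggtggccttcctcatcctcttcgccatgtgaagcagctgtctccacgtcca
Atp5g2 probe 2: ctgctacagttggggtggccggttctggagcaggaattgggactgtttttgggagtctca
Signal shared with transcripts of the sister genes was not tested, so the direction for Atp5g2 is uncertain.

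Several other genes had more than 1 probe. The probes of Ndufa9, an accessory subunit at the foot of the peripheral arm, lie 12971 bases apart on rn3 chromosome 4. Probe 1 read 0.17, 0.26 and 0.25 at 4 h (adjusted p = 0.00269), and probe 2 was below 0 on all 12 arrays, reaching -0.51 at 48 h (adjusted p = 6.1e-07). Which exons they cover was not analysed here. By contrast, the probes of Ndufs8, a core iron-sulphur subunit, share 34 bases, shown in capitals.
Ndufs8 probe 1: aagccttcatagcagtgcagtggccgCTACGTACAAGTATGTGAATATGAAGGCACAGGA
Ndufs8 probe 2: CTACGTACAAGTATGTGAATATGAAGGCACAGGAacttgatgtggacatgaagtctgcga
Probe 1 was called lower at 24 and 48 h (-0.15 and -0.22), and probe 2 lay at -0.055 and -0.12 without a call, with an SD of 0.11 at 24 h. For this gene the probes had the same sign at both late times, and the values of probe 2 were smaller in size.

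Comparisons with the reference rest on the correction of a dye trend. Before loess, the median of green over red at 48 h fell from -0.44 in the dimmest twentieth of probes to -1.83 in the brightest, and chain members, being bright, lay 0.59 to 0.93 below the median of all probes on each array. After loess the line was near flat. Centring each array on its median, with no loess, left the trend in place: 69 of the 72 members were then called at each time, with medians between -1.31 and -1.18, and all 1, 20, 13 and 10 rises at 2, 4, 24 and 48 h turned negative. No called step between times turned under median centring, and the members' median from 4 to 24 h lay below that of all probes by 0.081 with loess and by 0.063 with median centring, although only 1 of the 28 calls was kept there. No called member turned with the scanner's processed signals, the deposited values or normalisation within probes of like brightness.

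**Figure D5:**
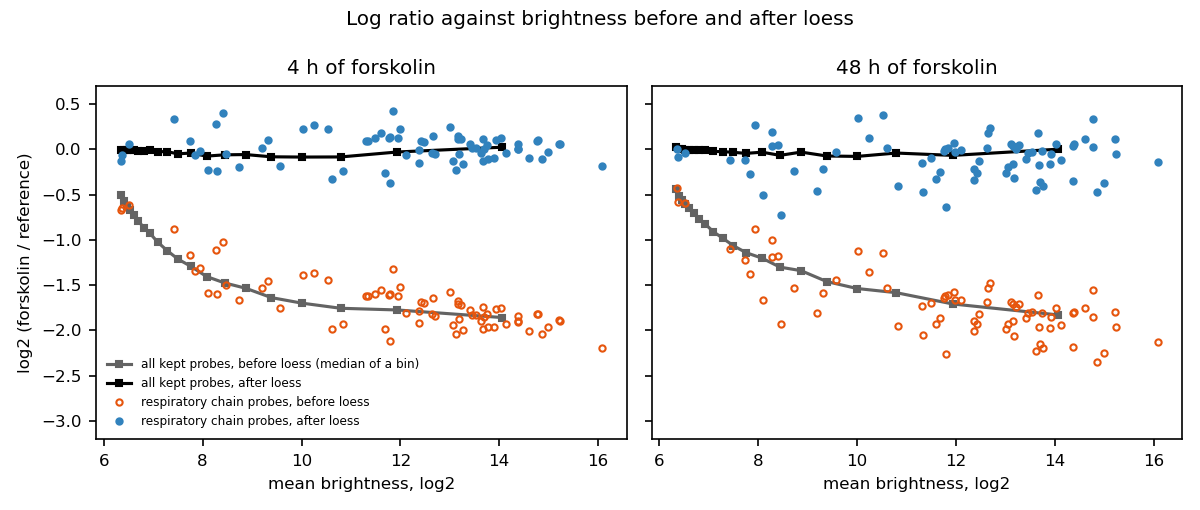
Log2 forskolin over reference against mean log2 brightness at 4 h (left) and 48 h (right), before and after loess, as medians of all probes kept in 20 bins of brightness (lines) and as single respiratory chain probes (points). Before loess both lines slope down, from -0.44 to -1.83 at 48 h, and the chain probes lie at the bright, low end; after loess the line is near 0.

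Promoter windows from RefSeq (250 bases before to 50 after each start, GRCr8) were found for 62 of the 71 genes. Motifs were searched on both strands. A site for NRF1, a factor known for nuclear-encoded mitochondrial genes (GCGCA, any base, then GCGC), was in 14 windows (22.6%), against 4.71% of the 27457 windows of all genes. The ETS core CCGGAAG, bound by GABP, was in 19 (30.6% against 9.22%), and a YY1 site (AAGATGG followed directly by CGGC) in 8 (12.9% against 0.798%). The full cyclic AMP response element TGACGTCA, the site of CREB, was in 3 (4.84% against 1.91%), and its shorter core TGACG, which the full element contains, in 28 (45.2% against 22%).

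Calls beside the motifs are given as counts, with no test, taking the brightest probe of each gene. Of 12 measured genes with the NRF1 site, 1 rose and 8 fell at 48 h, and of 44 without it, 7 rose and 16 fell. For the ETS core, 5 of 19 rose and 6 fell at 48 h, against 3 and 18 of 37 without it. For TGACG, 5 of 26 rose and 7 fell, against 3 and 17 of 30 without it. All probes counted 26.8% higher and 29.7% lower at 48 h, and 21.1% and 28.2% at 4 h. Calls of other genes with these motifs were not counted. Of 7 measured genes with the YY1 site, 6 rose and 1 fell at 4 h. The rises were those of Ndufa2, Ndufa6, Ndufa9, Ndufb8, Ndufs6 and Uqcrc1, the fall that of Ndufs7, and the rises turn with median centring. Ndufa9 counts as a rise by its probe 1. Its probe 2 was called lower at 4 h (-0.23, adjusted p = 0.00128) and at 24 h (-0.48, adjusted p = 1.56e-06). Of 49 genes without the site, 11 rose and 10 fell at 4 h. With the site, 4 rose and 1 fell at 24 h and 1 rose and 1 fell at 48 h, against 9 and 22, then 7 and 23, of the 49 without it. The full response element was in the windows of Cox8a, Ndufb2 and Sdhb. Cox8a, the common form of subunit 8, rose to 0.18 at 24 h, Ndufb2 fell at 2, 4 and 24 h, and Sdhb was called at no time. Both sequences with a called gene are shown for the element (GRCr8 chr1:213833594-213833723, minus strand, and chr4:69334207-69334336, plus strand), in capitals.
Cox8a: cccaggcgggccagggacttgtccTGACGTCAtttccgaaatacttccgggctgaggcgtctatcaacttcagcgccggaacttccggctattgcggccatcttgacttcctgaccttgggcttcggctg
Ndufb2: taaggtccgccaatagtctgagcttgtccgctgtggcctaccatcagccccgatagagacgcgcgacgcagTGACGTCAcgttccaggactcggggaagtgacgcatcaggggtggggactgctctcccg
A match is only a match of letters, and binding was not measured.

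Start sites within 500 bases on opposite strands gave 14 pairs of a chain gene and a neighbour, 12 of them measured. Both genes were called in 1, 2, 6 and 3 pairs at 2, 4, 24 and 48 h. Of all probes, 27.7%, 49.3%, 52.4% and 56.5% were called at these times. How often both genes of other pairs were called was not counted. At 24 h, both fell in 2 pairs, Sdhd with Timm8b and Ndufa7 with Rps28, a cytosolic ribosomal protein gene. Both rose in 2 others, Ndufa1 with Rnf113a1 and Ndufa9 with Akap3. Ndufa9 is taken there by its probe 1, while its probe 2 was called lower (-0.48, adjusted p = 1.56e-06). The partners went opposite ways in 2 pairs, Cox4i1 with Emc8 and Uqcrh with Lrrc41. The rises of the chain genes in these pairs turn with median centring.

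Other nuclear genes of mitochondria are given as a setting. For comparison, 24.5% of all probes rose and 27.9% fell at 24 h, and 26.8% rose and 29.7% fell at 48 h. Of 59 probes for mitochondrial ribosomal proteins, which translate the mitochondrially encoded subunits, 3 rose and 39 fell at 24 h, and 6 rose and 43 fell at 48 h, with a median of -0.25 at 48 h. Mrpl49 lay at -0.80 and Mrpl18 at -0.74 at 24 h, and Mrpl38, the largest called rise, at 0.36. Of 26 probes for assembly factors of the chain, 4 rose and 10 fell at 24 h. Surf1, an assembly factor of complex IV, lay at -0.56 at 4 h and stepped back up by 0.48 from 4 to 24 h. Ndufaf7 had the largest called rise of these factors at 24 h, 0.42. Of 24 probes for the citric acid cycle and pyruvate dehydrogenase, 7 rose and 11 fell at 24 h. Idh2, the mitochondrial NADP-dependent isocitrate dehydrogenase, lay lowest of these, at -1.09, and Mpc1 highest, at 0.67. Of 33 probes for import and chaperones, 10 rose and 11 fell at 24 h, with Lonp1 highest at 0.98 and Timm9 lowest at -0.48. The carriers of the inner membrane counted 8 higher and 6 lower of 20 at 48 h, with Slc25a1 at 0.86 and Slc25a10 at -0.92. With median centring no probe of the first 4 lists was called higher at 24 h, and no carrier at 48 h.

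Regulators of mitochondrial gene expression moved in both directions, with 5 higher and 9 lower of 22 probes at 24 h and 6 and 9 at 48 h. Ppargc1b, a coactivator of mitochondrial biogenesis, stood at 1.05 at 4 h (adjusted p = 1.17e-08), a rise that kept its sign with median centring. Gabpa, Nrf1 and Yy1, which encode the factors of the motifs above or their subunit, lay at -0.74, -0.54 and -0.48 at 48 h. Ppargc1a and Tfam did not pass the filter on dim probes. Cycs, the cytochrome c of the chain that the name pattern leaves out, rose at 4 h (0.19, turning with median centring) and fell at 48 h (-0.62), and Cyc1, the cytochrome c1 of complex III, rose at 4 h (0.38, likewise turning). The cytosolic ribosomal proteins, also bright, counted 38 higher and 29 lower of 87 at 48 h.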

How the data were processed

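Total RNA, extracted with Trizol, was labelled with an Agilent kit and hybridised to 12 rat arrays with 2 colours each, per the labels. The deposited scanner files hold green and red spot intensity values that, per the file headers, Agilent's Feature Extraction software (9.5.1.1) measured, with probe positions on rn3. The authors also deposited log2 ratios of reference over forskolin, and the submitters' processing notes name limma. These matched own loess values with correlations of 0.998 to 1.00 in size, with column medians of 0.0067 to 0.012; 170 non-control spots were absent from them.

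In R 4.3.3 with limma 3.58.1, intensities were background-corrected (normexp, offset 50), loess-normalised within arrays with control spots at weight 0, turned to green over red, and averaged over spots of a probe, without spots flagged as outliers. A probe was kept if 1 channel was well above background on all 3 arrays of any time. lmFit and eBayes fitted a mean per time over all 12 arrays, with 8 residual degrees of freedom. No chain probe was saturated or flagged as an outlier.

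The members, gene lists and motifs were chosen with earlier results of these data known. Named members were, in each comparison, the largest called rise and fall of each complex with the same sign on all 3 arrays (for complexes I and V, 2 each way), the subunits of complex II, the isoform sets, core subunits, and probes of a gene called in opposite directions. Ndufab1, Ndufa2, Ndufc2, Ndufb8, Ndufs6, Ndufs8, Uqcrh, Atp5o, Atp5d, Cox5a and several called values of named members were added after their values were seen. Symbols were updated through RefSeq GRCr8, by accession for 48 probes, current symbol for 28 and synonym for 5. The test was checked on simulated data. Alternatives were median centring, processed signals, no background correction, offset 0, deposited values, other filters, removal of the like-brightness median, 1 probe per gene, a replicate block and each array left out. Values of 1 chain gene and 1 marker gene are not reported here singly.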

Additional observations from a re-analysis of the deposited data

Results flagged for a closer look

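The following 6 probes were called on opposite sides of the reference at different times, with a called step between those times. They were picked out because their values under forskolin differ in sign between times. Ndufa1 fell at 2 h and rose at 24 and 48 h, with a step of 0.22 from 4 to 24 h (adjusted p = 0.0155). Ndufb4 fell at 4 and 24 h and rose at 48 h, with a step of 0.27 from 24 to 48 h (adjusted p = 0.00336). Ndufc2 probe 1 rose at 4 h and fell at 48 h, with a step of -0.18 from 4 to 24 h (adjusted p = 0.0251). The step of Ndufc2 probe 1 lost its call without 5 of the 6 arrays in turn (adjusted p between 0.0514 and 0.0852), and its 4 h rise without any 1 of the 4 h arrays (0.101 to 0.156). Uqcrb probe 2 rose at 4 h and fell at 24 and 48 h, with a step of -0.38 from 4 to 24 h (adjusted p = 9.64e-05). Cox6a2 fell at 2 and 4 h and rose at 24 h, with a step of 0.33 (adjusted p = 0.000516). Atp5c1 rose at 4 h and fell at 48 h, with steps of -0.30 from 4 to 24 h (adjusted p = 0.000838) and -0.21 from 24 to 48 h (adjusted p = 0.0301). The sides of the reference rest on loess normalisation, since all of these rises turn with median centring. The steps kept their signs there. Groups of 3 arrays were too small for a search for single outlying arrays.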

How the results depend on the processing

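Median centring changed most. It called 69 members at each of 2, 4, 24 and 48 h, 0 from 2 to 4 h, 1 from 4 to 24 h, 0 from 24 to 48 h and 5 in the F test over times. The members' medians were then -1.31, -1.20, -1.18 and -1.26 against the reference, 0.097 from 2 to 4 h and 0.0038 from 4 to 24 h. These probes were called higher with loess and lay below 0 with median centring: Uqcrc1 at 2 h (-0.68), at 4 h (-0.48) and at 24 h (-0.56); Ndufa9 probe 1 at 4 h (-0.97) and 24 h (-0.96); Ndufs1 at 4 h (-0.57); Ndufv1 at 4, 24 and 48 h (-0.82, -0.71 and -0.86). Likewise Cox4i1 lay at -0.89, -0.62 and -0.66 and Cox7a2l at -0.85, -0.62 and -0.64 at 4, 24 and 48 h, Atp5a1 at -0.34 at 4 h, Atp5b at -0.77 and -0.71 at 4 and 24 h, Ndufa6 at -1.04 and -1.06 and Cox8a at -1.21 and -1.31 at 24 and 48 h, Cox6a2 at -0.75 at 24 h, and Ndufaf1 at -0.39 and Atp5g2 probe 2 at -1.04 at 48 h. Centring leaves the trend with brightness in the ratios by construction.

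The short steps depended on other settings too. From 2 to 4 h, 1 member was called with the processed signals, with offset 0, with the deposited values and with no filter. From 24 to 48 h, 3 were called with the processed signals and with no filter, and 4 with offset 0, the deposited values and the like-brightness median removed. The last setting called 23 at 2 h, with medians of -0.052 at 2 h and -0.0066 at 4 h. The 48 h median was -0.11 with the processed signals and -0.080 with offset 0. The cause was not tested.

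Leaving out each array in turn gave 9 to 13 calls at 2 h, 22 to 29 at 4 h, 32 to 38 at 24 h and 34 to 36 at 48 h. It gave 0 to 2 from 2 to 4 h, 20 to 25 from 4 to 24 h, 3 to 8 from 24 to 48 h and 32 to 41 in the F test. The low counts came without replicate 3 of 2 h (9) and replicate 3 of 4 h (22). From 2 to 4 h the count was 0 without replicate 1 of 2 h or replicate 3 of 4 h, and 1 without replicates 2 or 3 of 2 h or replicate 2 of 4 h. From 24 to 48 h it was 4 without replicate 1 of 24 h and 3 without replicates 2 or 3 of either time. Medians ranged from -0.041 to -0.022, 0.013 to 0.043, -0.076 to -0.041 and -0.075 to -0.050 against the reference, and from 0.049 to 0.067, -0.089 to -0.072 and -0.043 to -0.017 between times.

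Arrays with the same replicate number lay on 1 slide. Deviations from the time means over all probes correlated between them at 0.058 to 0.483 (median 0.226) in 18 pairs, and between other arrays at -0.403 to 0.314 (median -0.216) in 36. All 18 pairs of 1 slide lay above 0, so arrays of a slide deviated alike to some degree. The main fit left the slide out, since the lowest of these pairs lay under 0.1. With the replicate block, 19, 40, 46 and 44 members were called at 2, 4, 24 and 48 h, 4, 33 and 8 in the steps, and 41 in the F test. Each count was higher than in the main fit. The number of arrays, 3 at each time, limits the precision.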
